A study of Rattus norvegicus with 12 samples.

Results

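Semaphorins, plexins and neuropilins form one ligand and receptor family of axon guidance. Most secreted class 3 semaphorins bind a neuropilin, which has only a short cytoplasmic tail and passes the signal on through a plexin A partner. Most membrane-bound semaphorins bind plexins directly. Plexins carry a cytoplasmic GTPase-activating domain and act on small GTPases and the cytoskeleton, and in the hippocampus the family is known for repelling or attracting growing axons, pruning mossy fibre branches and shaping dendrites and synapses. Members were taken as the probe sets annotated to exactly 1 gene symbol out of 31 listed genes. The rule found 49 of the 31042 probe sets tested, for 27 of the 31 genes. These were 9 probe sets of 7 class 3 semaphorins, 19 of 10 membrane semaphorins, 4 of both neuropilins and 17 of 8 plexins, while Sema4c, Sema5b, Sema7a and Plxnb3 were not analysed here.

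The RNA came from organotypic hippocampal slice cultures, in which slices of brain tissue are kept alive on a porous membrane. Wild-type Wistar rats were used at postnatal day 7, slices were 350 µm thick, 4 slices shared an insert at 33 °C, and every culture was collected after 26 days in vitro. Cultures of the 7B12 group received a mouse monoclonal antibody to residues 763 to 820 of rat Nogo-A, those of the 11C7 group a mouse monoclonal antibody to residues 623 to 640, and those of the IgG group a control monoclonal antibody to wheat auxin. Each of the 3 antibodies was applied for 5 days from day 21 in vitro at 3 µg/ml, with a change of medium every 2 days, and NT cultures were left without treatment. Nogo-A, a membrane protein of oligodendrocytes and some neurons encoded by Rtn4, is known for limiting neurite growth. Each group had 3 arrays numbered 1 to 3, each array carried the RNA of 24 pooled cultures, and the design text describes the replicates as separate cultures from different animals. The question was what neutralising Nogo-A does to gene expression in otherwise intact tissue, with IgG and NT as controls.

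Values below are log2 of the deposited ratio less the median of the array, and every printed difference is a difference of such log2 values. A ratio carries no level, so members cannot be ranked by abundance, the labelled tissue cannot be checked by the level of its markers, and in these bulk samples fewer cells of a type and less RNA per cell cannot be told apart. A probe set is called dim here when its median ratio over the 12 arrays was under 1. This held for 9 of the 49 members and for 23.6% of all probe sets. The median SD within a group was 1.30 for the dim members and 0.43 for the other 40. The probe sets of Rtn4 lay between -0.23 and 0.27 on all arrays, which checks no label, since the antibodies bind the protein. The acute-phase gene Saa3 sets arrays apart: it stood at 6.52, 4.40 and 7.17 in 7B12, at 6.62, 0.02 and 0.61 in 11C7, and between -2.17 and 0.06 in the controls, so that array 11C7 1 lay with the 7B12 arrays. The 11C7 changes of Nrp1 are therefore also given without that array. Arrays also differed by replicate number in a way that spans all 4 groups, described after the treatments.

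No member passed the test in any treatment comparison. With limma and Benjamini-Hochberg adjustment over all 31042 probe sets, 0 members had an adjusted p under 0.05 for both antibodies together, 7B12 or 11C7 against the mean of IgG and NT, for 7B12 against 11C7, or for IgG against NT. The percentage called among all probe sets was 0 in each of these 5 comparisons and in the F test over the 4 groups. At an unadjusted p under 0.05, 4 members were found for 7B12, beside 5.2% of all probe sets. Of these 4, 1 was higher, beside 3.09% of all probe sets, and 3 were lower, beside 2.12%. For 11C7, 1 member was found, against 3.22% of all probe sets. For both antibodies together 4 members were found, beside 4.32% of all probe sets, and all 4 were lower, beside 1.96%. For IgG against NT 2 were found, against 2.32%, and for 7B12 against 11C7 0, against 3.83%. The F test over the 4 groups had 3.54% of all probe sets at an unadjusted p under 0.05. The median change over the members was -0.08 for 7B12 and 0.02 for 11C7, beside medians of 0.00 and 0.01 over all probe sets. With 1 array left out in turn either median took both signs, from -0.117 to 0.0342 in 7B12 and from -0.023 to 0.0662 in 11C7. The change of 23 of the 49 members in 7B12 and of 30 in 11C7 turned sign in at least 1 of these fits. The changes of single members are thus given as sizes with their errors, and none is a call.

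**Figure D1:**
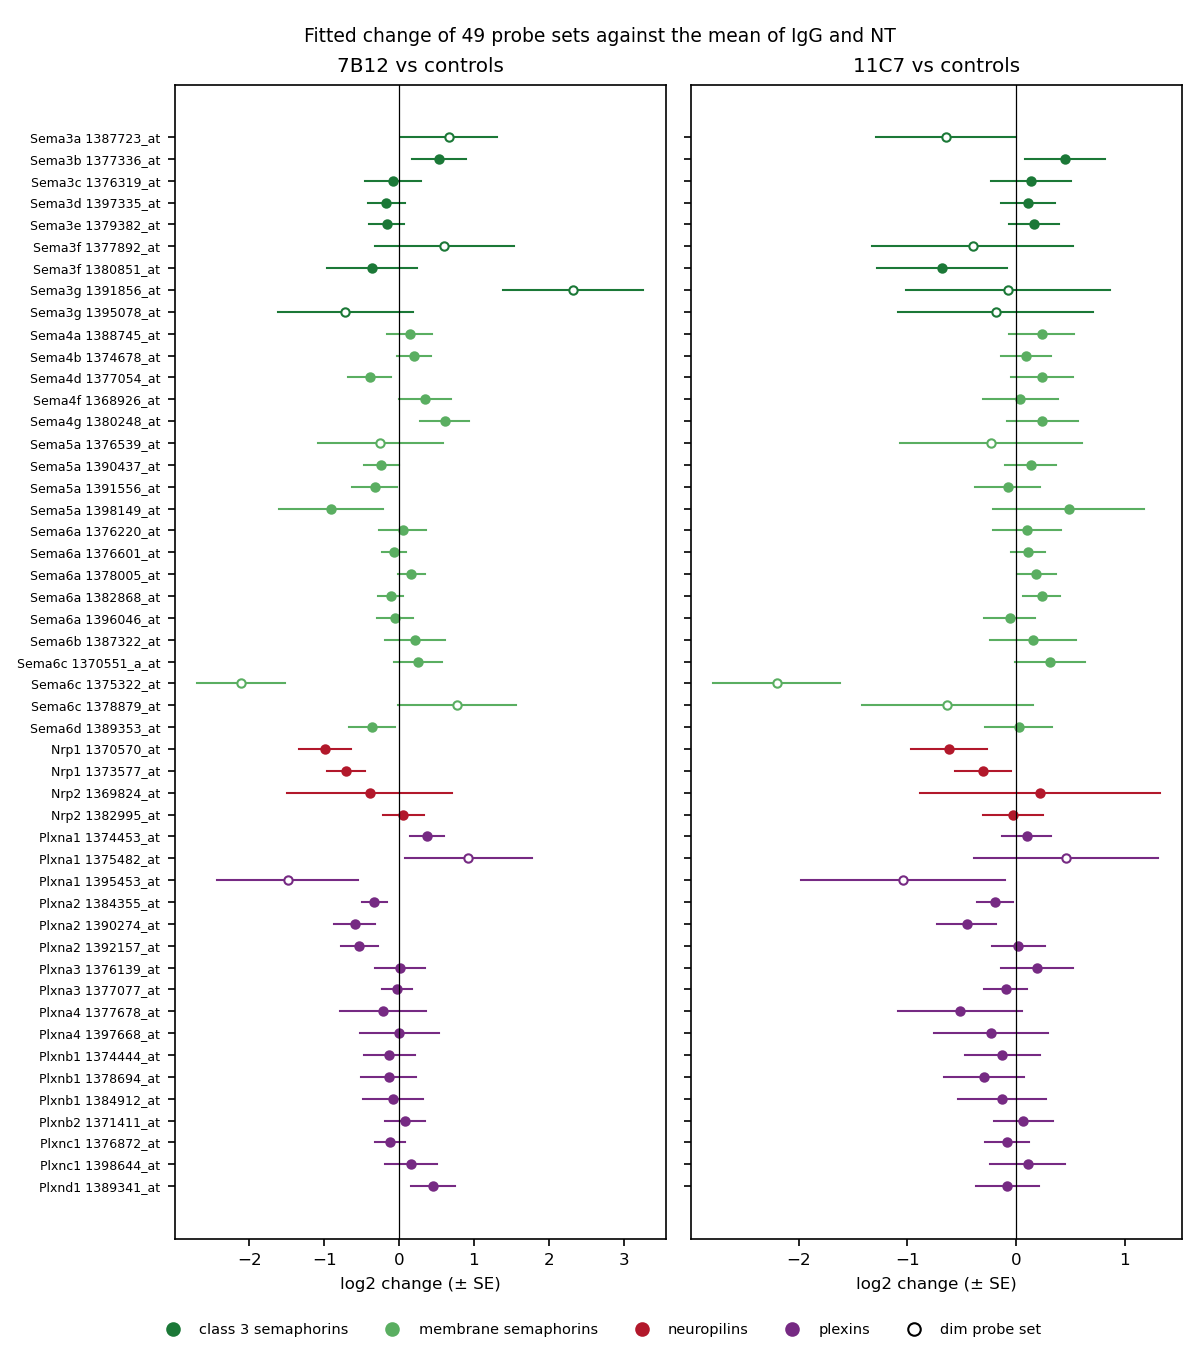
Fitted log2 change (points) with its standard error (lines) of the 49 member probe sets, for 7B12 (left) and 11C7 (right) against the mean of the IgG and NT groups, coloured by class, with dim probe sets as open circles. Most lines reach or come near 0, both Nrp1 probe sets lie left of 0 in both panels, and the widest lines belong mostly to dim probe sets.

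Neuropilins are the ligand-binding co-receptors of class 3 semaphorins, and Nrp1 also binds vascular endothelial growth factor. Both Nrp1 probe sets were lower in every 7B12 array than in any of the 6 control arrays. Probe set 1370570_at of Nrp1 stood at -1.11, -0.38 and -0.45 in 7B12, at -1.13, -0.32 and 0.62 in 11C7, at 0.05, 0.50 and 0.47 in IgG and at 0.05, 0.64 and 0.34 in NT. Probe set 1373577_at of Nrp1 stood at -0.55, -0.46 and -0.51 in 7B12, at -0.79, 0.13 and 0.35 in 11C7, at 0.24, -0.01 and 0.39 in IgG and at -0.12, 0.24 and 0.50 in NT. The 7B12 arrays did not overlap the controls in either probe set, whereas the 11C7 arrays spread from the lowest values of Nrp1 up to the level of the controls. Nrp1 was the only member gene whose 7B12 arrays all lay outside the range of the controls. Non-overlap on the lower side occurred in 1.11% of all probe sets, and the 2 member probe sets that showed it measure the same gene.

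The fitted change of Nrp1 in 7B12 was -0.99 ± 0.35 (SE, 3 arrays against 6) for 1370570_at, which is 1.98-fold lower, with a 95% confidence interval from -1.78 to -0.20. For 1373577_at of Nrp1 it was -0.71 ± 0.25, 1.64-fold lower, with an interval from -1.28 to -0.14. Neither passed: limma gave an unadjusted p = 0.0192 and an unadjusted p = 0.0198, with adjusted p = 0.826 and adjusted p = 0.836. With the replicate number added to the fit the SE were 0.24 and 0.21, and again neither passed. That limma fit gave unadjusted p = 0.0042 and unadjusted p = 0.0101, with adjusted p = 0.3275 and adjusted p = 0.386. In it 2933 of all 31042 probe sets had an unadjusted p under 0.05. Within replicate numbers 1, 2 and 3 the 7B12 array differed from the mean of its IgG and NT arrays by -1.17, -0.95 and -0.85 in 1370570_at and by -0.61, -0.57 and -0.95 in 1373577_at. All 6 of these differences were below 0, and their order by number differed between the probe sets.

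For 11C7, Nrp1 differed from the controls by -0.62 ± 0.35 in 1370570_at and by -0.30 ± 0.25 in 1373577_at, with intervals from -1.41 to 0.17 and from -0.88 to 0.27. These values moved with either of the arrays 11C7 1 and 11C7 3. Without it the changes of Nrp1 were -0.19 and 0.04, and without 11C7 3 they were -1.07 and -0.53. The test of 7B12 against 11C7 gave -0.37 ± 0.41 and -0.41 ± 0.29 for the 2 probe sets of Nrp1 (limma, adjusted p = 1 for both), so a difference between the antibodies was not shown, and the intervals from -1.28 to 0.54 and from -1.06 to 0.25 leave room for one. IgG and NT had nearly equal means of Nrp1, 0.34 and 0.34 in 1370570_at and 0.20 and 0.20 in 1373577_at.

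Marker lists of cell types in which Nrp1 may be found also differed between arrays. The mean of 7 endothelial genes was -0.08, -1.33 and -0.64 in 7B12, -0.36, -0.85 and 0.33 in 11C7 and between -1.38 and 0.56 in the controls, so the groups overlapped. The mean of 6 oligodendrocyte precursor genes was -0.07, -0.14 and -0.20 in 7B12, below the range of -0.03 to 0.19 in the controls, and -0.09, 0.13 and 0.24 in 11C7. The mean of 9 genes of microglia and macrophages was 0.19, 0.08 and 0.93 in 7B12, 0.30, -0.34 and 0.47 in 11C7 and between -0.50 and 0.62 in the controls. The mean of 8 genes of fibroblasts and mural cells was -0.22, 1.23 and -0.15 in 7B12 and 0.10, -0.60 and -0.12 in 11C7. In the controls it was between -0.56 and 0.355. For 8 neuronal genes the mean was -1.15, 1.04 and -0.05 in 7B12 and -1.18, 0.39 and 0.06 in 11C7. The controls of that list were between -1.77 and 1.27. For 8 astrocyte genes the mean was 0.05, 0.07 and -0.32 in 7B12 and -0.10, -0.30 and 0.23 in 11C7. The controls of the astrocyte list were between 0.01 and 0.17. How often a list of genes lies outside the control range was not counted. The part of these cell types in the values of Nrp1 was not tested.

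Nrp2, the other neuropilin, is known as the co-receptor favoured by Sema3f. In 1382995_at of Nrp2 the values were 0.23, 0.10 and -0.24 in 7B12, 0.00, 0.33 and -0.48 in 11C7, 0.07, 0.11 and -0.40 in IgG and 0.36, 0.32 and -0.62 in NT. The third array was the lowest of every group, and the groups overlapped throughout. The 7B12 change was 0.06 ± 0.28, with an interval from -0.56 to 0.68 that overlaps the intervals of both Nrp1 probe sets. A difference between Nrp1 and Nrp2 was not tested. Probe set 1369824_at of Nrp2 read -0.19, 1.30 and -3.37 in 7B12, -0.14, 0.17 and -0.44 in 11C7, 0.47, -0.06 and 0.18 in IgG and -3.69, 0.61 and 0.33 in NT. Its 2 lowest values, in 7B12 3 and NT 1, leave a change of -0.39 ± 1.10 that says little, and NT 1 was not low in 1382995_at of Nrp2.

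**Figure D2:**
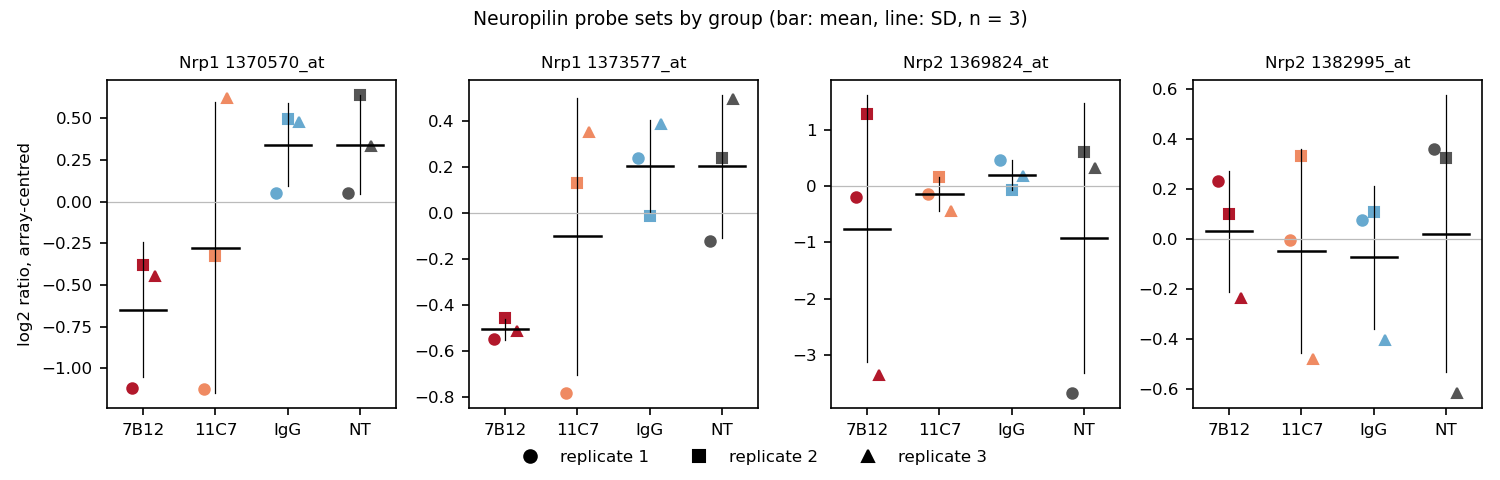
Log2 ratio less the array median of the 4 neuropilin probe sets in the 7B12, 11C7, IgG and NT arrays; symbols mark replicate numbers, bars the group mean and lines the SD (n = 3). Both Nrp1 panels show the 7B12 arrays below all IgG and NT arrays and the 11C7 arrays spread widely, while the Nrp2 groups overlap.

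The start of the Nrp1 gene is shown because Nrp1 is the member that stood apart in 7B12. The sequence is the stretch of 250 bases before the annotated start, from RefSeq on build GRCr8 at chr19:73256307-73256556, plus strand, written 5′ to 3′. Capitals mark a match to CCAAT on either strand.
Nrp1: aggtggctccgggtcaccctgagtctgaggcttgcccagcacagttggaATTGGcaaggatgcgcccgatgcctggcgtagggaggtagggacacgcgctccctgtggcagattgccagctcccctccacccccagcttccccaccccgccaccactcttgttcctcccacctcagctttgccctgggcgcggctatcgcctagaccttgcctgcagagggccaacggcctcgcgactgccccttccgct
The stretch holds 66.4% G and C. It has 1 match to CCAAT, 0 to the GC box GGGCGG and 0 to the TATA box TATAAA. On both strands, the share of 33469 promoters of the same length with a match was 34% for CCAAT, 30.5% for GGGCGG and 12.9% for TATAAA. Among the 23 listed genes with an entry, 6 had a CCAAT match, 13 a GC box match and 0 a TATA box match. A match only describes these letters.

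Among the secreted class 3 semaphorins, most of them ligands of the neuropilins, 1 of 9 probe sets had an unadjusted p under 0.05 in 7B12 and 0 in 11C7. Their changes ran from -0.72 to 2.33 with a median of -0.08 in 7B12, and from -0.68 to 0.45 with a median of -0.07 in 11C7. Sema3a, the prototype repellent of growing axons, has a single probe set, 1387723_at, which is dim. Sema3a stood at -1.98, -1.51 and 0.36 in 7B12, at -2.45, -1.78 and -2.84 in 11C7, at -1.86, -0.01 and 0.51 in IgG and at -3.45, -2.17 and -3.32 in NT. All IgG arrays lay above all NT arrays, although the difference did not pass. The IgG difference from NT was 2.52 ± 0.74 (limma, unadjusted p = 0.00713, adjusted p = 1), and within numbers 1, 2 and 3 it was 1.59, 2.15 and 3.84. Non-overlap on the higher side occurred in 2.54% of all probe sets in that comparison and in 1 of the 49 members, so a difference between the controls was not shown. Against the mean of both controls Sema3a differed by 0.67 ± 0.64 in 7B12, a value that array 7B12 3 sets: without it the change was -0.0317, and within numbers 1, 2 and 3 it was 0.67, -0.42 and 1.76. In 11C7 Sema3a differed by -0.64 ± 0.64, and 7B12 exceeded 11C7 by 1.31 ± 0.74 (limma, adjusted p = 1).

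Sema3g, a class 3 ligand described mainly in endothelium, has a pair of probe sets, both dim, which differed from each other. In 1391856_at of Sema3g the values were -0.44, 0.50 and 1.51 in 7B12, -1.19, -1.72 and -2.73 in 11C7, 0.82, -3.59 and -2.23 in IgG and -2.67, -2.73 and -0.44 in NT. The 7B12 arrays lay above all 11C7 arrays and overlapped the controls through IgG 1. The 7B12 change of this probe set was 2.33 ± 0.94 (limma, unadjusted p = 0.033, adjusted p = 0.905). Against 11C7 it was 2.40 ± 1.08 (limma, unadjusted p = 0.0517), with non-overlap on the higher side in 3.89% of all probe sets. In 1395078_at of Sema3g the 7B12 change was -0.72 ± 0.90, of the opposite sign.

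The remaining class 3 genes differed less. Sema3b read 0.41, -0.02 and 0.36 in 7B12 and 0.54, 0.18 and -0.22 in 11C7, inside the control range of -0.89 to 0.67, and its changes were 0.53 ± 0.36 and 0.45 ± 0.36. Changes in 7B12 were -0.08 for Sema3c, -0.17 for Sema3d and -0.16 for Sema3e, with SE between 0.23 and 0.37. Sema3f, the ligand linked to Nrp2, gave 0.61 ± 0.93 in its dim probe set 1377892_at and -0.36 ± 0.60 in 1380851_at. Each of these Sema3f changes turned sign without 1 array, to -0.54 without 7B12 3 in 1377892_at and to 0.15 without 7B12 2 in 1380851_at.

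**Figure D3:**
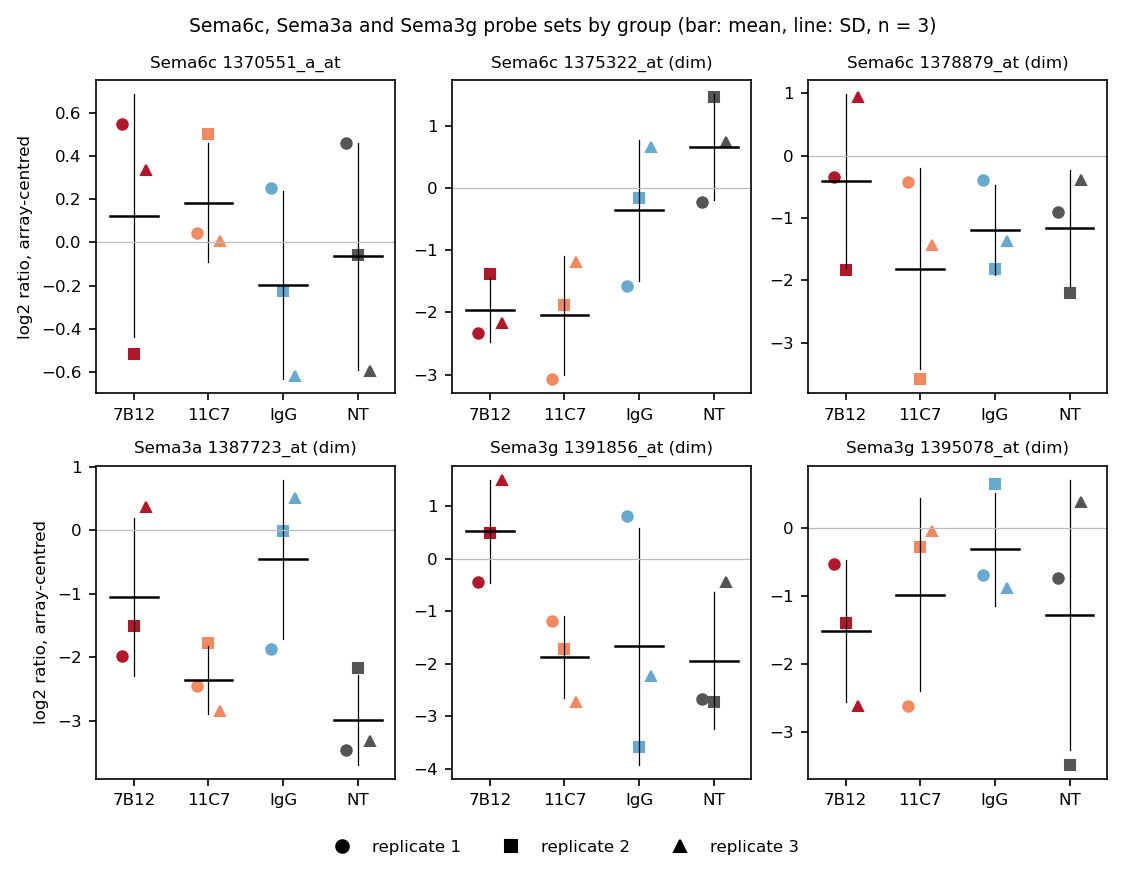
Log2 ratio less the array median of all probe sets of Sema6c, Sema3a and Sema3g in the 7B12, 11C7, IgG and NT arrays; symbols mark replicate numbers, bars the group mean and lines the SD (n = 3). In 1375322_at of Sema6c the arrays of both antibodies lie below all control arrays but IgG 1, in the other 2 probe sets of that gene the groups overlap, and Sema3a is higher in all IgG arrays than in all NT arrays.

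Membrane semaphorins signal through plexins at short range, and some also act as receptors. Of their 19 probe sets, 1 had an unadjusted p under 0.05 in 7B12 and the same one in 11C7. Sema6c 1375322_at, a dim probe set of a class 6 semaphorin, had the smallest p of all members: it stood at -2.33, -1.37 and -2.18 in 7B12, at -3.08, -1.89 and -1.19 in 11C7, at -1.58, -0.15 and 0.66 in IgG and at -0.23, 1.47 and 0.74 in NT. All 6 antibody arrays were below 5 of the 6 control arrays, and only IgG 1 lay within their range. The change was -2.12 ± 0.58 in 7B12, -2.20 ± 0.58 in 11C7 and -2.16 ± 0.48 for both together, 4.47-fold lower (limma, adjusted p = 0.634, adjusted p = 1 and adjusted p = 0.675). The unadjusted p was 0.00496 in 7B12, 0.0039 in 11C7 and 0.0012 for both. With the replicate number added to the limma fit, both together had unadjusted p = 0.000109 and adjusted p = 0.429, which did not pass either. Within numbers 1, 2 and 3 both antibodies together differed by -1.80, -2.29 and -2.38. IgG itself was lower than NT by -1.02 ± 0.68. The other probe sets of Sema6c differed from this. Probe set 1370551_a_at of Sema6c changed by 0.25 ± 0.32 in 7B12 and by 0.31 ± 0.32 in 11C7. The dim 1378879_at of Sema6c changed by 0.77 ± 0.79 in 7B12, while in 11C7 it read -0.42, -3.58 and -1.43 and changed by -0.63 ± 0.79, with an interval from -2.40 to 1.14 that includes the 11C7 change of 1375322_at. Which of the 3 reads the Sema6c transcript best was not tested.

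Class 4 semaphorins showed small differences. Sema4d, the main ligand of plexin B1, stood at -0.42, -0.26 and -0.08 in 7B12, at 0.37, 0.48 and 0.29 in 11C7, at -0.51, 0.05 and 0.97 in IgG and at -0.13, 0.12 and 0.33 in NT. All 7B12 arrays were below all 11C7 arrays, and both groups lay inside the range of the controls. The difference of Sema4d between the antibodies was -0.63 ± 0.33 (limma, unadjusted p = 0.0826, adjusted p = 1). In that comparison 3.41% of all probe sets were non-overlapping on the lower side, and 3 of the 49 members were: Sema4d, 1 of 4 probe sets of Sema5a and 1 of 5 of Sema6a. The 7B12 changes of Sema4a, Sema4b, Sema4f and Sema4g were between 0.14 and 0.61, each with an SE between 0.23 and 0.35.

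Sema5a, which carries thrombospondin repeats, and Sema6a, a ligand of plexins A2 and A4, are covered by several probe sets each. The 3 probe sets of Sema5a that are not dim changed by -0.24 ± 0.24, -0.32 ± 0.30 and -0.91 ± 0.69 in 7B12. The last of these, 1398149_at, read 0.05, -0.30 and -3.07 in the 7B12 arrays of Sema5a, so 1 array sets its size. The 5 probe sets of Sema6a changed by between -0.11 and 0.17 in 7B12 and by between -0.06 and 0.24 in 11C7. Sema6b and Sema6d changed by 0.21 ± 0.40 and -0.36 ± 0.31 in 7B12.

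Plexins transmit the semaphorin signal, and 0 of their 17 probe sets reached an unadjusted p under 0.05 in 7B12 or in 11C7. With the replicate number added to the fit, 2 did in 7B12, beside 2933 of all 31042 probe sets, and 0 in 11C7. The 2 were Plxnd1 and 1384355_at of Plxna2 (limma, unadjusted p = 0.0121 and unadjusted p = 0.0161, adjusted p = 0.399 and adjusted p = 0.419). The median change of the plexins was -0.09 in 7B12 and -0.10 in 11C7. Plxna2, a receptor of class 6 semaphorins and a partner of neuropilins, had its 3 probe sets below 0 in 7B12, at -0.33 ± 0.17 for 1384355_at, -0.59 ± 0.27 for 1390274_at and -0.53 ± 0.24 for 1392157_at (limma, unadjusted p = 0.0751, unadjusted p = 0.0548 and unadjusted p = 0.0559). In 1390274_at of Plxna2 the values were 0.10, -0.24 and -0.98 in 7B12, 0.04, -0.62 and -0.14 in 11C7, 0.03, 0.30 and 0.31 in IgG and 0.12, 0.63 and -0.09 in NT. In 1392157_at of Plxna2 they were -0.20, 0.01 and -1.12 in 7B12, -0.14, 0.10 and 0.38 in 11C7, -0.03, 0.14 and -0.17 in IgG and 0.28, 0.19 and 0.14 in NT. The groups overlapped, and the single array 7B12 3 was the lowest in each of the 3 probe sets. Without it the 7B12 changes of Plxna2 were -0.19, -0.29 and -0.19. For both antibodies together 1390274_at gave -0.52 ± 0.22 (limma, unadjusted p = 0.0403, adjusted p = 1).

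The other plexins gave mixed values. The 3 probe sets of Plxna1 differed from each other in 7B12. Their changes were -1.49 ± 0.94 in the dim 1395453_at, 0.93 ± 0.84 in the dim 1375482_at and 0.37 ± 0.23 in 1374453_at. Plxna4 changed by -0.21 ± 0.57 in 1377678_at and by 0.01 ± 0.53 in 1397668_at. Plxnd1, the receptor of Sema3e, read 0.53, 0.02 and 0.57 in 7B12, -0.74 to 0.33 in 11C7 and -0.67 to 0.28 in the controls. Its 7B12 change was 0.45 ± 0.29, and within numbers it was 0.32, 0.51 and 0.53, above 0 in all 3 although the groups overlapped. In IgG against NT, Plxna3, a plexin A partner of neuropilins, was lower in 1377077_at, with -0.24, -0.18 and 0.02 in IgG against 0.04, 0.80 and 0.62 in NT. In 7B12 it read 0.33, 0.06 and 0.06, and in 11C7 0.13, -0.15 and 0.26. IgG and NT did not overlap, which on the lower side held for 2.06% of all probe sets, and their difference was -0.62 ± 0.23 (limma, unadjusted p = 0.0214, adjusted p = 1). The other Plxna3 probe set gave -0.20 ± 0.39 for IgG against NT. Changes of the B and C plexins, the receptors of class 4 semaphorins and of Sema7a, were between -0.14 and 0.16 in 7B12 and between -0.30 and 0.11 in 11C7.

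Replicate number, by contrast, went with differences in many members. An F test in limma with group in the model asked whether the 3 numbers differed, 4 arrays each. It called 13 of the 49 member probe sets (26.5%) of 12 genes at an adjusted p under 0.05, beside 17.9% of all probe sets. By class, the test called 7 of 17 plexin probe sets, 4 of 19 of membrane semaphorins, 1 of 9 of class 3 semaphorins and 1 of 4 of neuropilins. Of the 13, 10 were highest in number 1, 2 in number 2 and 1 in number 3. Of the 5545 called among all probe sets, 2389 were highest in number 1, 1994 in number 2 and 1162 in number 3. With 1 array left out the count was between 3 and 13, lowest without NT 1. It was 4 without NT 2, 5 without IgG 1, IgG 2 or 7B12 1, 6 without 7B12 2, and 7 without NT 3 or IgG 3. The share called over all probe sets in these fits is not given here. The fall is therefore not read as a trait of the members.

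Plexins with the smallest p were Plxnc1, the receptor of Sema7a, and Plxnb1 and Plxnb2, receptors of class 4 semaphorins. In 1398644_at of Plxnc1 the arrays of number 1 read 0.81 in 7B12, 0.76 in 11C7, 0.64 in IgG and 0.61 in NT. Those of number 2 read 0.13, 0.38, 0.08 and 0.01 in the same order of groups, and those of number 3 read -0.07, -0.43, -0.32 and -0.24. Numbers did not overlap, with means of 0.71, 0.15 and -0.26 and SD of 0.09, 0.16 and 0.15 (adjusted p = 0.00791). The other Plxnc1 probe set, 1376872_at, had means of 0.06, 0.34 and -0.07 (adjusted p = 0.134) and did not pass.

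Plxnb1 1374444_at read 0.83, 0.72, 0.73 and 0.97 in the number 1 arrays of 7B12, 11C7, IgG and NT, against 0.06, -0.20, 0.03 and -0.01 in number 2 and -0.34, 0.03, 0.09 and 0.05 in number 3. Its means were 0.81, -0.03 and -0.04 (adjusted p = 0.00916). In 1378694_at of Plxnb1 number 1 read 0.95, 0.52, 0.69 and 0.92 in 7B12, 11C7, IgG and NT, against -0.28, -0.52, 0.18 and 0.12 in number 2 and -0.21, -0.01, -0.17 and 0.02 in number 3. Its means were 0.77, -0.12 and -0.09 (adjusted p = 0.0173), and those of 1384912_at of Plxnb1 were 0.63, -0.20 and -0.24 (adjusted p = 0.0804). Plxnb2 read 0.65, 0.62, 0.66 and 0.68 in number 1, against 0.08, 0.10, -0.04 and -0.19 in number 2 and 0.05, 0.04, -0.0029 and 0.02 in number 3, with means of 0.65, -0.01 and 0.03 (adjusted p = 0.00945). Number 1 was thus the high one for both B plexins in all 4 groups.

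Plxna4, a plexin A known from sensory and hippocampal axons, had another order. In 1397668_at of Plxna4 number 2 read 1.21, 0.62, 1.17 and 1.47 in 7B12, 11C7, IgG and NT, against -0.20, -0.66, -0.28 and 0.12 in number 1 and -0.03, 0.30, -0.56 and -0.0045 in number 3, so that number 2 lay above all other arrays. Its means were -0.25, 1.12 and -0.07 (adjusted p = 0.015), and those of 1377678_at of Plxna4 were -0.14, 1.16 and 0.01 (adjusted p = 0.0825). The remaining called members were Plxnd1, Plxna3, Sema3c, Sema4a, Sema4b, Sema6c, Sema6d and Nrp2, with 1 probe set each. With 1 array left out in turn, 1398644_at of Plxnc1 and 1374444_at of Plxnb1 were called in 12 of 12 fits, Plxnb2 in 11, 1378694_at of Plxnb1 in 10, 1397668_at of Plxna4 in 9 and Plxnd1 in 8. The others were mostly lost: Nrp2 was called in 4 of 12 fits, Plxna3 in 3, Sema3c, Sema4b and Sema6d in 2, and Sema4a and Sema6c in 1.

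Marker lists differed between numbers too. The mean of 8 neuronal genes was -1.30, 0.95 and 0.02 in numbers 1, 2 and 3, that of 7 oligodendrocyte genes -0.70, 0.12 and 0.51, and that of 7 endothelial genes 0.10, -1.06 and -0.11. The mean of 8 astrocyte genes was 0.00, 0.02 and 0.03. The part of these cell types in the differences of the plexins between numbers was not tested.

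**Figure D4:**
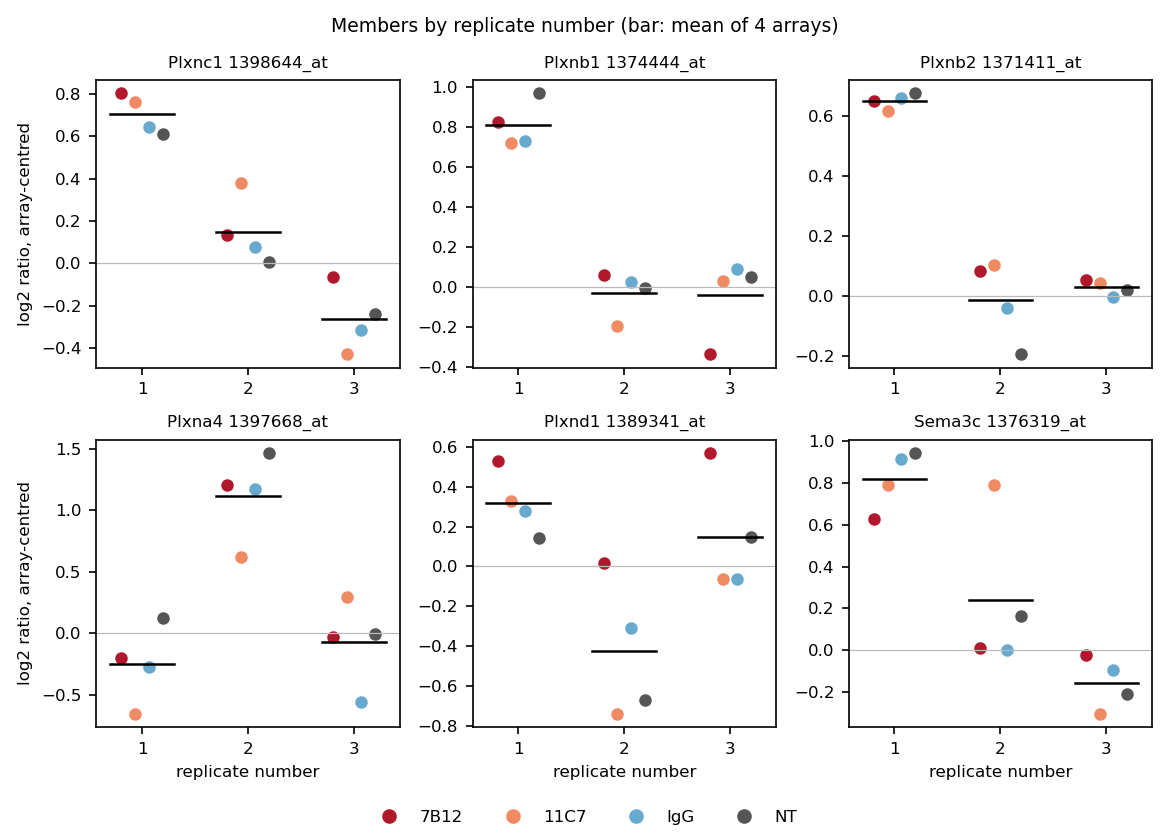
Log2 ratio less the array median of 6 members called between replicate numbers, by number, with points coloured by group (7B12, 11C7, IgG, NT) and bars at the mean of 4 arrays. The plotted probe sets of Plxnc1, Plxnb1 and Plxnb2 are highest in number 1 in every group, and that of Plxna4 in number 2.

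The starts of Plxnb1, Plxnb2 and Plxnc1 are shown because Plxnb1, Plxnb2 and 1 of the 2 probe sets of Plxnc1 were highest in number 1. They are the 250 bases before the annotated start from RefSeq on GRCr8, written 5′ to 3′ on the gene's strand, with capitals at matches to GGGCGG on either strand. Plxnb1 is at chr8:118622911-118623160 on the plus strand, Plxnb2 at chr7:122137949-122138198 on the minus strand and Plxnc1 at chr7:31430606-31430855 on the minus strand.
Plxnb1: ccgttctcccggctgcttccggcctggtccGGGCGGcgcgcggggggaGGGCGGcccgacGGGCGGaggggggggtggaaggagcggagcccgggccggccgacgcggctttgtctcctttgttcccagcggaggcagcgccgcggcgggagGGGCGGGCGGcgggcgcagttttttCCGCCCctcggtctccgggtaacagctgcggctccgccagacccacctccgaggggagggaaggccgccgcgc
Plxnb2: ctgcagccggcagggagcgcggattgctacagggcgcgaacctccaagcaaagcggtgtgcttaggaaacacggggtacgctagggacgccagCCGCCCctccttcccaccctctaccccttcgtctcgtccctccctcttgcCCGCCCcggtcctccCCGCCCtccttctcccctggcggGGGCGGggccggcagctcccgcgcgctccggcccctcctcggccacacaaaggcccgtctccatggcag
Plxnc1: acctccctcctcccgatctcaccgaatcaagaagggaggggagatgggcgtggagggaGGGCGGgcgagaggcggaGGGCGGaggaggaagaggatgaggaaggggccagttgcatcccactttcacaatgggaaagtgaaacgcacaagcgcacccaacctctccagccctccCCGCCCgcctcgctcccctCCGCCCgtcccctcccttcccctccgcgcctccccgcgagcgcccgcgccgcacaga
They hold 6, 4 and 4 matches and 78.0%, 71.6% and 68.8% G and C. The GC box match occurs in 30.5% of all such stretches, as given with the start of Nrp1. Among the other genes called and highest in number 1, Sema6d held 4 matches, Plxnd1 3, Sema4b 2, Plxna3 1, and Sema3c and Sema6c 0. A link between these matches and the replicate number was not tested.

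Genes that act with the family were described by a list of 42, among them collapsin response mediators, MICAL oxidases, kinases, co-receptors and adhesion molecules. For 39 of them 61 probe sets were measured, and 0 passed in any of the treatment comparisons. At an unadjusted p under 0.05, 1 probe set was lower and 0 were higher in 7B12, in 11C7 and for both antibodies together, and there were 0 in either direction for IgG against NT and for 7B12 against 11C7. These shares are below the background of each comparison. Their median change was 0.03 in 7B12 and 0.01 in 11C7.

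In 7B12 the smallest p belonged to Mical2, an actin-oxidising enzyme of the MICAL family, at -0.64 ± 0.28 in 1393860_at (limma, unadjusted p = 0.0432, adjusted p = 0.939), with -0.91 ± 0.42 in 1389096_at of Mical2. Next was Kdr, the vascular endothelial growth factor receptor that pairs with Nrp1, at -1.97 ± 0.89 in 1367948_a_at (limma, unadjusted p = 0.0528). Kdr read 0.23, -2.72 and -2.74 in 7B12, -0.15, -1.21 and 0.44 in 11C7, and between -1.35 and 1.62 in the controls. In this probe set the second and the third 7B12 array of Kdr were below every control array, and the first was not. The dim 1397868_at of Kdr read -2.80, -3.78 and -2.105 in 7B12 and between -3.33 and -0.01 in the controls. There only the second 7B12 array was below every control array. Kdr also belongs to the endothelial marker list above.

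In 11C7, Arhgef12, an exchange factor that binds B plexins, had the smallest p, with -0.31, -0.15 and 0.01 in 11C7 against 0.18, 0.45 and 0.02 in IgG and 0.35, 0.26 and 0.13 in NT. The 11C7 arrays of 1394348_at of Arhgef12 lay below all 6 controls, and the change was -0.38 ± 0.15 (limma, unadjusted p = 0.0281, adjusted p = 1). Non-overlap on the lower side occurred in 0.902% of all probe sets in that comparison. A second Arhgef12 probe set gave -0.44 ± 0.28 and Gsk3b, a kinase downstream of Sema3a, 0.24 ± 0.15. For IgG against NT the smallest p belonged to Dpysl3 (1.31 ± 0.68), Arhgef11 (0.44 ± 0.33) and Mical1 (-0.36 ± 0.32), and for 7B12 against 11C7 to Limk1 (0.60 ± 0.42), Kdr (-1.44 ± 1.03) and Fyn (-0.22 ± 0.18). Between replicate numbers 22 of the 61 partner probe sets (36.1%) were called, beside 17.9% of all probe sets.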

How the data were processed

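Expression was measured in 12 samples of total RNA, with 1 Affymetrix rat array for each. Per the submitters' processing notes the arrays were read with GCOS 1.4 and MAS5. The deposited values are ratios: per the labels' design text the authors normalised each array and divided each probe set by the median of its control replicates. The files show otherwise, since 76.4% of probe sets had a median ratio of 1 over all 12 arrays. The divisor cancels in differences between groups on the log2 scale, which were computed here from the ratios. For 57 spike-in controls no value was used. Platform annotation gave 1 gene symbol to 20826 of 31042 probe sets, several to 436 and none here to 9780.

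Groups and replicate numbers came from the sample titles. Log2 values less the array median were fitted with 1 mean per group in limma 3.58.1 (R 4.3.3) with eBayes, with two-sided tests. P-values were adjusted after Benjamini and Hochberg across the 31042 probe sets, and an adjusted p under 0.05 counts as a call. The mean-variance trend was not used, because the mean of a ratio says nothing of brightness. The test was checked on simulated data. Noise was independent on each array there, and for treatments the replicate numbers did not differ, unlike in these data. The outcome is not given here. Errors are SE unless stated, and the number of arrays limits the precision. P-values measure the spread between these arrays.

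Members, partner genes and marker lists were chosen with earlier results of these data known. By the rule for named genes, all array values are printed for the neuropilins, Sema3a, members with an unadjusted p under 0.05 in a comparison (the 3 smallest where fewer), and the 5 smallest among replicate numbers. Array values printed beside it, for Sema3b, Sema5a 1398149_at, Plxnd1, Sema6c 1378879_at, Kdr and Arhgef12, were chosen after they were seen. Promoter stretches and positions are from the RefSeq table of build GRCr8, matched by symbol for 23 of the 31 genes. They were chosen after the values were seen.

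Same-numbered arrays were compared by the correlation of their deviations from the group means. It was between 0.086 and 0.423 in 18 pairs and over 0.1 in 17 of them, so the rule for treating the numbers as pairs was missed by 1 pair. Between arrays of different groups and different numbers it was between -0.293 and 0.081, below every same-number pair. Alternatives were the number as a block, each array left out, other normalisations, no dim probe sets, the trend, array weights, gene means and IgG alone as control.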

Additional observations from a re-analysis of the deposited data

How the results depend on the processing

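Every count of members that passed for a treatment stayed at 0 under each alternative run, and the smallest adjusted p of any member was 0.0659, for Nrp1 1370570_at in 7B12 with the 11C7 arrays left out and the replicate number as a block, a fit chosen after the data were seen. The methods' analysis of variance with a 1.2-fold limit and no adjustment found 2 members, Sema3a and Sema6c 1375322_at (4.08%, beside 2.99% of all probe sets), and 0 after Benjamini-Hochberg. The numbers did not meet the rule for pairs, though 12 of 12 arrays correlated best with their own number, a hint from the data and not from the design. With the replicate number as a block no call changed, and unadjusted p under 0.05 was found for 6, 2, 8, 3 and 3 members (both antibodies, 11C7, 7B12, IgG against NT, 7B12 against 11C7), beside 4, 1, 4, 2 and 0 without it. The same counts over all probe sets were 2551, 1783, 2933, 1059 and 2185 with the block and 1342, 999, 1615, 719 and 1189 without it. By class, the 8 members in 7B12 with the block were 2 each of class 3 semaphorins, membrane semaphorins, neuropilins and plexins.

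With each array left out in turn, the median change of the members ran from -0.117 to 0.0342 in 7B12 (-0.145 to -0.0052 with the block), from -0.023 to 0.0662 in 11C7, from -0.17 to 0.0661 for IgG against NT and from -0.127 to 0.0164 for 7B12 against 11C7. The count called between replicate numbers ran from 3 to 13, and from 11 to 19 under the other alternatives, with the share over all probe sets not given here. Without 1 array the sign of the change turned for 23 of the 49 members in 7B12, 30 in 11C7, 24 for both antibodies, 39 for IgG against NT and 29 for 7B12 against 11C7, and the cause was not tested. Among the members recomputed under all alternatives these were Nrp1 1370570_at for 7B12 against 11C7 (-0.79 to 0.0781; -0.62 to 0.0237 with the block), Nrp1 1373577_at in 11C7 (-0.53 to 0.0373), and in 7B12 Nrp2 1369824_at (-1.42 to 0.91; -1.16 to 1.07 with the block) and Nrp2 1382995_at (-0.10 to 0.19; with the block -0.0411 to 0.17, and -0.017 without NT 3). In 7B12 they were also Sema3a (-0.0317 to 1.14; lowest -0.0074 with the block), Sema3f 1377892_at (-0.54 to 1.25; lowest -0.17 with the block) and Sema3f 1380851_at (-0.67 to 0.15; highest 0.41 with the block). With IgG alone as control Sema3a gave -0.59 in 7B12. With the block the sign also turned in 7B12 for Sema3g 1395078_at (-1.45 to 0.16) and Sema6c 1370551_a_at (-0.0402 to 0.62). The 7B12 changes of Nrp1 ran from -1.12 to -0.75 and from -0.79 to -0.64 and kept their sign.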
